A study of Mus musculus with 6 samples.

Results

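The Toll-like receptor sensing machinery was followed through 10 genes that were fixed by name: the receptors *Tlr2*, *Tlr3*, *Tlr4* and *Tlr7*, the co-receptor and partner genes *Cd14*, *Ly86* and *Ly96*, and the signalling genes *Myd88*, *Irak4* and *Traf6*. All 10 were found among the 31053 gene identifiers of the count table. The libraries came from the cerebellum of wild-type (WT) mice and of knock-in knock-out (KIKO) mice, a model of Friedreich's ataxia in which an allele with an expanded repeat is combined with a null allele in all cells of the body, and WT littermates on a C57BL/6 background served as controls. Counts of 2 WT libraries (replicates 1 and 2) and 3 KIKO libraries (replicates 1, 2 and 3) were compared, and a WT sample numbered 3 was not analysed here. The labels give the tissue as cerebellum, with the genotype and no age, sex or cell fraction. The methods describe both CD45+/CD11b+ cells sorted from cerebellum with magnetic beads and cultured cerebellar microglia, and which preparation gave these libraries is not stated in the labels. Nothing in the labels says whether each library is a separate mouse, so that the p-values measure the spread between these libraries, which may in part be technical.

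Toll-like receptors are sensors of microbial molecules and of products of damaged cells, and microglia, the resident macrophages of the brain, are their main site of expression in the central nervous system. At the cell surface, TLR4 recognizes lipopolysaccharide together with MD-2, the product of *Ly96*, after CD14 has handed over the ligand, whereas TLR2 recognizes lipoproteins and also uses CD14. TLR3 and TLR7 read double-stranded and single-stranded RNA in endosomes. *Ly86* encodes MD-1, the partner of the TLR-related receptor CD180. Apart from TLR3, which signals through TRIF (*Ticam1*), the receptors listed here use the adaptor MyD88, which recruits the kinase IRAK4 and leads to the ubiquitin ligase TRAF6 and to NF-kB.

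The depth was low, with 1044760 and 1351339 counts in WT replicates 1 and 2, and 1281661, 1241997 and 1013107 counts in KIKO replicates 1, 2 and 3. A signal of 3 counts corresponded to between 2.275 and 3.044 normalized CPM (the count relative to the library's total, scaled by TMM factors), which covers counting error only. KIKO replicate 2 stood apart from the other libraries. Its log2 CPM correlated with theirs with r from 0.672 to 0.747, compared with r from 0.884 to 0.931 among the other 4 libraries. These correlations run over genes, and genes are no independent replicates. It had the highest value of the 5 libraries in 33.9% of the 10889 tested genes and the lowest in 37.1%. The results for the members are therefore given with and without this library.

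The cell markers of the libraries were examined first. The 12 microglial markers were all detected in each library, with *Csf1r* as the most abundant on average, and summed to 5384 and 6832 normalized CPM in WT replicates 1 and 2 and to 4718, 12110 and 5441 in KIKO replicates 1, 2 and 3. KIKO replicate 2 thus had the highest microglial signal, while 0 of the 12 markers differed between the genotypes by the criteria given below, the smallest unadjusted p being 0.34 in edgeR's test. RNA of other cells was present in every library. The 6 markers of granule and other neurons, led by *Rbfox3*, summed to 3772 and 2436 normalized CPM in WT and to 3614, 1653 and 3991 in KIKO replicates 1, 2 and 3. *Mbp*, which encodes myelin basic protein of oligodendrocytes and was chosen after its values were seen, had 1265 and 4883 in WT and 1055, 7456 and 1811 in KIKO replicates 1, 2 and 3, highest in KIKO replicate 2. The 5 markers of choroid plexus, led by *Ttr*, summed to 12780 and 13880 in WT and to 9435, 15520 and 7849 in KIKO. Those of Purkinje neurons (led by *Itpr1*), endothelial and mural cells (*Flt1*) and fibroblasts (*Dcn*) reached at most 552.8, 875.3 and 99.68 in a library. The 6 markers of border macrophages summed to 221.1 and 257.9 in WT and to 211.4, 357 and 196.9 in KIKO. *Pf4* led them on average over the 5 libraries, but in WT its mean of 44.7 was below the 54 of *Lyve1*. Among the 7 markers of B and T lymphocytes, *Cd79a*, *Ms4a1*, *Cd3e* and *Cd3d* had 0 counts in all 5 libraries, and the summed level of the list was at most 3.044 normalized CPM, or 3 counts. Among the 7 markers of monocytes and neutrophils, *Ly6c2* and *Ly6g* had 0 counts in all 5 libraries. The list, led by *S100a9* on average over the 5 libraries, summed to 20.92 and 37.92 in WT and to 103.3, 32.45 and 36.53 in KIKO. In such bulk libraries, fewer cells of a type and less RNA per cell cannot be told apart.

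Of the 10 genes, *Cd14* and *Tlr2* were by far the most abundant. Their mean level over the 5 libraries was 130 and 127 normalized CPM, above 86.8% and 86.4% of the tested genes. They made up between 47.8% and 77.9% of the counts of all 10 genes in a library. *Ly86* (34.9) and *Tlr7* (34.4) followed at the middle of the tested range, then *Myd88* (23.1), above 35.7% of the tested genes, *Traf6* (12.9) and *Tlr3* (10.6). *Irak4* (7.68), *Tlr4* (5.21) and *Ly96* (2.94) were too low to be tested. Per kb of exon, the mean was 74.8 CPM for *Cd14*, 42 for *Tlr2*, 9.6 for *Ly86*, 8.98 for *Myd88*, 8.44 for *Tlr7*, 2.88 for *Ly96*, 2.04 for *Tlr3*, 1.64 for *Traf6*, 1.53 for *Irak4* and 0.937 for *Tlr4*. On this scale *Cd14* was above *Tlr2*, and *Tlr2* above the 8 other genes, in each of the 5 libraries. The order of *Ly86*, *Myd88* and *Tlr7* changed between libraries, as did that of the 5 genes below them, and in KIKO replicate 2 *Ly86* (3.83) fell below *Tlr3* (4.01). The levels per length presume that reads fall along the whole transcript. The labels name such a kit, but the methods name a digital mRNA service, and in a library of transcript ends the plain CPM would be the level.

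**Figure D1:**
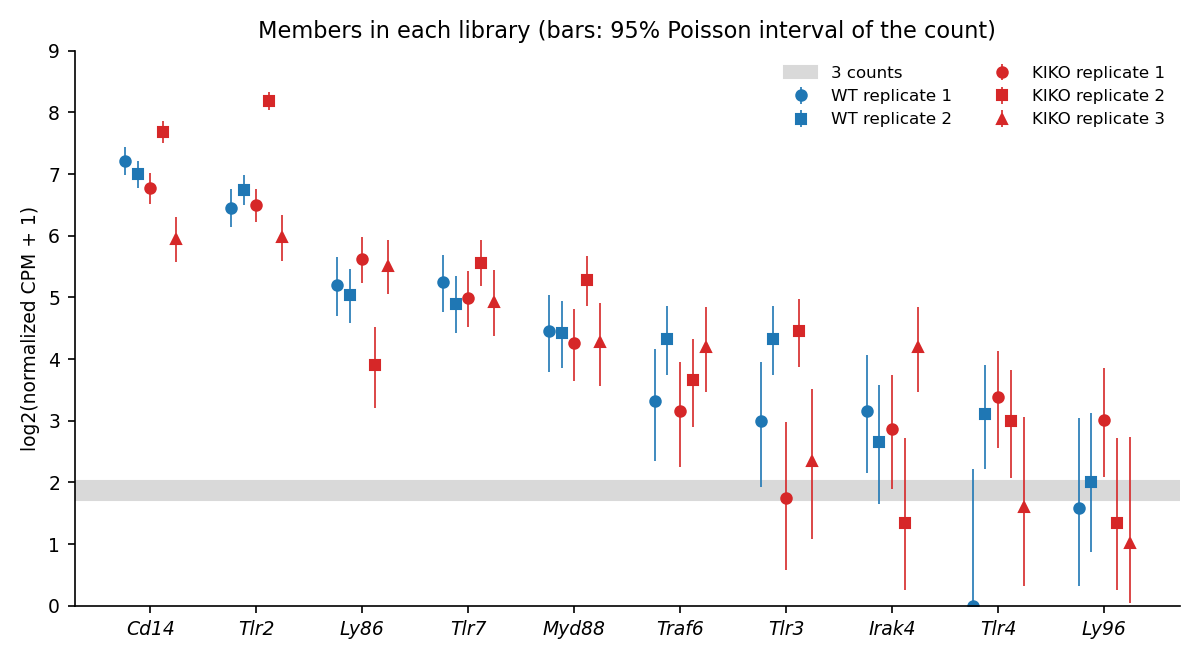
Normalized level of the 10 genes in each library, as log2(CPM + 1), ordered by mean level. Circles, squares and triangles mark replicates 1, 2 and 3 of WT (blue) and KIKO (red), bars are exact 95% Poisson intervals of the count, and the grey band marks 3 counts. *Cd14* and *Tlr2* lie above the other genes, *Tlr3*, *Irak4*, *Tlr4* and *Ly96* reach the band, and KIKO replicate 2 is the highest library for *Tlr2* and the lowest for *Ly86*.

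Between the genotypes, none of the 7 tested genes passed the thresholds used by the study, a log2 fold change above 0.75 in size with p below 0.05 before adjustment. By the quasi-likelihood test of edgeR, 131 of all 10889 genes passed them (1.2%), with 0.716% higher and 0.487% lower in KIKO, and 0 had an adjusted p under 0.05, by DESeq2 and limma too. The smallest unadjusted p among the 7 genes was 0.369, every adjusted p was 1 (Benjamini-Hochberg over all genes tested), and DESeq2 and limma called 0 of the 7 as well. The WT and KIKO values overlapped in all 10 genes, while they did not overlap in 16.7% of all genes tested. Of the 7 log2 fold changes, 4 were above 0 and 3 below, with a median of 0.07, beside a median of 0.02 over all genes tested. The intervals of the differences were wide, so that these results do not show equal levels. The study applied its thresholds to sorted CD45+/CD11b+ cells and describes DESeq2 for its differential expression. Whether these libraries belong to that comparison is not stated in the labels.

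Among the surface receptors, *Tlr2* (chromosome 3, 83836272 to 83841767) had 86.66 and 106.2 normalized CPM in WT replicates 1 and 2 and 89.12, 289.8 and 61.9 in KIKO replicates 1, 2 and 3. KIKO replicate 2 was the highest library and KIKO replicate 3 the lowest, with both WT values between them. WT averaged 96.4 ± 13.8 (SD, n = 2) and KIKO 147 ± 124 (SD, n = 3). The log2 fold change was 0.61 with a standard error of 0.64 (95% interval −0.86 to 2.08, adjusted p = 1, edgeR). Without KIKO replicate 2, it was −0.35 with a standard error of 0.31 (adjusted p = 0.828, edgeR). *Tlr4* (chromosome 4, 66827584 to 66930284), the receptor of lipopolysaccharide, had 0 and 10 counts in WT and 12, 9 and 2 counts in KIKO replicates 1, 2 and 3. By the limit of 3 counts, the 0 of WT replicate 1 allows up to 2.988 normalized CPM, and the KIKO values of 9.464, 6.955 and 2.03 lay on both sides of the 7.585 of WT replicate 2.

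*Cd14* (chromosome 18, 36725067 to 36726798), which encodes the co-receptor that binds lipopolysaccharide, had 147.4 and 126.7 normalized CPM in WT and 108, 204.8 and 60.89 in KIKO replicates 1, 2 and 3. KIKO replicates 1 and 3 lay below both WT libraries and KIKO replicate 2 above them. WT averaged 137 ± 14.7 (SD, n = 2) and KIKO 125 ± 73.4 (SD, n = 3). The log2 fold change was −0.13 with a standard error of 0.51 (95% interval −1.30 to 1.03, adjusted p = 1, edgeR). Without KIKO replicate 2, the log2 fold change of *Cd14* was −0.69 with a standard error of 0.30 (unadjusted p = 0.0301, adjusted p = 0.55, edgeR). It did not reach the threshold of 0.75 in that fit, in which 6.45% of all genes passed the thresholds and 0.0482% had an adjusted p under 0.05. *Ly96* (chromosome 1, 16688051 to 16709611), which encodes MD-2, had 2 and 4 counts in WT and 9, 2 and 1 in KIKO replicates 1, 2 and 3. In the lipopolysaccharide complex, the 3 genes were thus measured at very different levels, *Cd14* with at least 60 counts in each library and *Tlr4* and *Ly96* with at most 12. *Tlr4* and *Ly96* were below the filter on low counts and were not tested there, and neither passed the thresholds when all genes with at least 1 count were fitted.

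*Ly86* (chromosome 13, 37345208 to 37419036), which encodes MD-1, had 35.86 and 31.86 normalized CPM in WT and 48.11, 13.91 and 44.65 in KIKO replicates 1, 2 and 3. Here KIKO replicate 2 was the lowest library and the other KIKO libraries were the highest. The log2 fold change of *Ly86* was 0.07 (standard error 0.59, 95% interval −1.28 to 1.41), and 0.45 without KIKO replicate 2 (standard error 0.38 and adjusted p = 0.822, edgeR). *Cd180*, the receptor that MD-1 accompanies, had 45.82 and 44.75 normalized CPM in WT and 36.28, 125.2 and 32.47 in KIKO replicates 1, 2 and 3. The ratio of *Cd180* to *Ly86* was 1.28 and 1.4 in WT, 0.754 and 0.727 in KIKO replicates 1 and 3, and 9 in KIKO replicate 2. In that library *Cd180* was at its highest and *Ly86* at its lowest. B lymphocytes also express both genes. Of their markers, *Cd79a* and *Ms4a1* had 0 counts in all libraries and *Cd79b* had 2 counts in WT replicate 2, 2 in KIKO replicate 1 and 0 in the others, and the part of these cells in the ratio was not tested. The exons of *Cd180* overlap those of *Mast4* on the other strand over 182 bases, and reads there may have been assigned to either gene.

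Among the endosomal receptors, *Tlr7* (chromosome X, 167304929 to 167330558) varied least in CPM, with 36.86 and 28.82 in WT and 30.76, 46.36 and 29.43 in KIKO replicates 1, 2 and 3. Its highest value was 1.61 times its lowest, and its log2 fold change was 0.12 (standard error 0.46, 95% interval −0.94 to 1.17), and −0.12 without KIKO replicate 2 (standard error 0.42). *Tlr3* (chromosome 8, 45395665 to 45411080) had 7 and 25 counts in WT and 3, 27 and 4 counts in KIKO replicates 1, 2 and 3. WT replicate 2 and KIKO replicate 2 were the high libraries, at 18.96 and 20.86 normalized CPM, and the other 3 were at most 6.973. The log2 fold change of *Tlr3* was −0.50 (standard error 1.02, 95% interval −2.83 to 1.82), and without KIKO replicate 2 the gene was too low to be tested. Astrocytes express *Tlr3* as well, and the 6 astrocyte markers, led by *Slc1a3*, summed to 243.1 and 411.8 normalized CPM in WT and to 408.5, 437.4 and 349.1 in KIKO. Of these, *Gfap* was higher in KIKO past the thresholds (log2 fold change 1.33, unadjusted p = 0.04, adjusted p = 1, edgeR), and the other 4 tested markers, between −0.02 and 0.44, did not pass them. The part of astrocytes in the level of *Tlr3* was not tested. Its exons overlap the antisense gene *Gm45542* over 381 bases.

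Downstream of the receptors, *Myd88* (chromosome 9, 119335934 to 119341411) had 20.92 and 20.48 normalized CPM in WT and 18.14, 37.86 and 18.27 in KIKO replicates 1, 2 and 3. KIKO replicate 2 was at 1.95 times the median of the other libraries, which spanned a narrow range. The log2 fold change of *Myd88* was 0.26 (standard error 0.56, 95% interval −1.03 to 1.55), and −0.19 without KIKO replicate 2 (standard error 0.52). *Irak4* (chromosome 15, 94543643 to 94581815) had 8 and 7 counts in WT and 8, 2 and 17 counts in KIKO replicates 1, 2 and 3. Its lowest and highest libraries were both KIKO. *Traf6* (chromosome 2, 101678429 to 101701669) had 8.965 and 18.96 normalized CPM in WT and 7.886, 11.59 and 17.25 in KIKO, a log2 fold change of −0.21 (standard error 0.71, 95% interval −1.83 to 1.42). Without KIKO replicate 2 that of *Traf6* was −0.20 (standard error 0.66). WT replicate 2 and KIKO replicate 3 were its high libraries. Exons of *Myd88* overlap those of *Acaa1a* over 290 bases and exons of *Irak4* those of *Twf1* over 395 bases, each on the other strand, and the strand setting of the counting is not given in the sources used here.

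**Figure D2:**
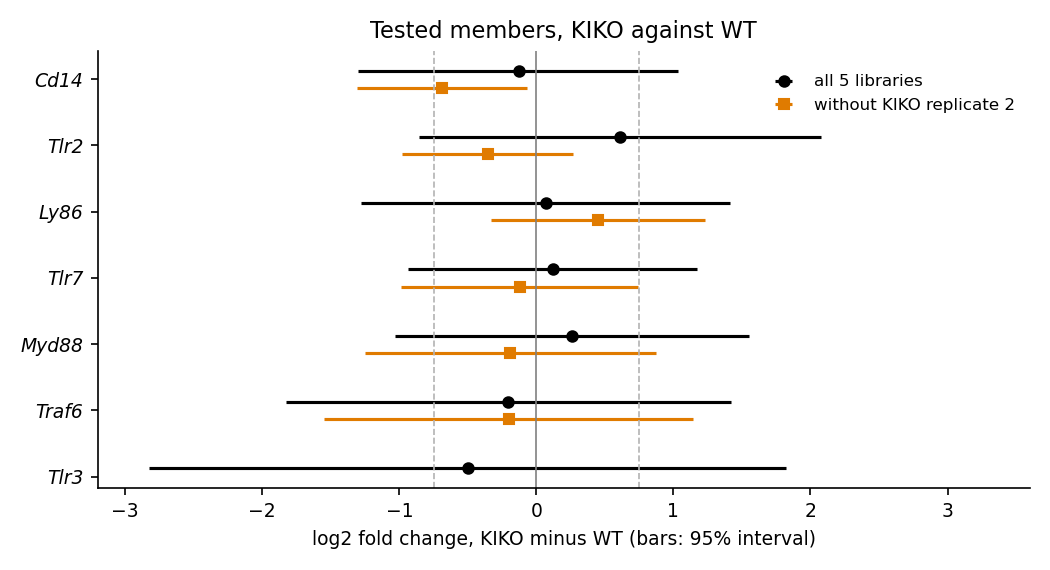
Log2 fold change of the 7 tested genes between KIKO and WT, with all 5 libraries (black circles) and without KIKO replicate 2 (orange squares). Bars are 95% intervals from edgeR's quasi-likelihood fit and dashed lines mark 0.75 in each direction. All intervals of the fit with 5 libraries include 0. Without KIKO replicate 2, that of *Cd14* runs from −1.31 to −0.07, and *Tlr3* did not pass the filter on low counts.

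The promoters of 3 genes are shown as examples of both directions in KIKO replicate 2, where *Tlr2* and *Myd88* were highest and *Ly86* lowest. *Tlr3*, *Tlr7* and *Cd14* were also highest in that library and *Irak4* was also lowest. The windows of *Tlr3* and *Irak4* are not shown, and none was searched for *Tlr7* and *Cd14*. The windows run from 250 bases before to 50 bases after the RefSeq start (GRCm38.p6) and are written 5′ to 3′ on the strand of the gene. Capitals mark matches, on either strand, to GGAAGT, the core that PU.1 and other ETS factors bind, to the interferon-stimulated response element (GAAA, any 2 bases, GAAA), and to the NF-kB consensus.
Tlr2, chr3:83841559-83841858, minus strand: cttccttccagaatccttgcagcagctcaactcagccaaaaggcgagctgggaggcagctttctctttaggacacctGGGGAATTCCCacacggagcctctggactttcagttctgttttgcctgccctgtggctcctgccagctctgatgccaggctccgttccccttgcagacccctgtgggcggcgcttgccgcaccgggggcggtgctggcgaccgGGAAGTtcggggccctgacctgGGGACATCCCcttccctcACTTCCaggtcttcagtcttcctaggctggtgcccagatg
Myd88, chr9:119339969-119340268, minus strand: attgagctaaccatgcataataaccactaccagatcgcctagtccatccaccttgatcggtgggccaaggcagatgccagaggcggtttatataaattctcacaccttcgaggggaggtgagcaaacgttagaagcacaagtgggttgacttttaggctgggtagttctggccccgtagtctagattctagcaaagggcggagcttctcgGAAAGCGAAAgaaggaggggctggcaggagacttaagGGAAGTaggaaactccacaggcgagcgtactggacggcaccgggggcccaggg
Ly86, chr13:37345095-37345394, plus strand: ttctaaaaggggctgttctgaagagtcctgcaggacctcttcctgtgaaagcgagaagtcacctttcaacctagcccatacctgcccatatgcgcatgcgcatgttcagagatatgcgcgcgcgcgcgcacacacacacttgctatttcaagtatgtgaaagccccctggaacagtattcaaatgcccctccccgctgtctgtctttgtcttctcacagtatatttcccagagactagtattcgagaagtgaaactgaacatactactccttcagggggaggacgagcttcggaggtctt
The window of *Tlr2* held GGAAGT at 2 places and the NF-kB consensus at 2 places, where matches on both strands overlap. That of *Myd88* held GGAAGT and the interferon-stimulated response element once each, and that of *Ly86* held none of the letters searched. Among 32851 promoter windows of this length, 23.8% held GGAAGT, 3.44% held the interferon-stimulated response element and 8.46% held the NF-kB consensus. The windows of *Tlr3*, *Irak4* and *Traf6* were searched as well, and *Tlr3* alone among them had a match, to the NF-kB consensus. The matches are letters in these windows, and binding was not measured.

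To set the genes against the amount of microglial RNA, their counts were divided by those of the 12 microglial markers. All 10 genes together came to 6.57% and 5.38% of the marker counts in WT and to 6.94%, 5.24% and 4.72% in KIKO replicates 1, 2 and 3. WT averaged 5.98 ± 0.837% (SD, n = 2) and KIKO 5.63 ± 1.16% (SD, n = 3), a difference within the spread of either group. The summed level of the genes had been highest in KIKO replicate 2, with 635.2 normalized CPM compared with 256.7 to 367.9 in the others, yet relative to the 12 markers this library lay inside the range of the other 4. Relative to 6 of these markers it was the lowest library, at 7.76%, beside 8.55% to 13.1% in the others. *Myd88* followed the markers most closely, with 3.89 and 3 counts per 1000 marker counts in WT and 3.84, 3.13 and 3.36 in KIKO replicates 1, 2 and 3. Its coefficient of variation over the 5 libraries was 36% in CPM and 11.8% per marker count. For *Tlr2* it was 73% and 27%, and KIKO replicate 2 was still the highest library with 23.9 counts per 1000 marker counts, beside 11.4 to 18.9 in the other 4. For *Cd14* it was 40.8% and 31.6%, with the highest value in WT replicate 1 (27.4) and the lowest in KIKO replicate 3 (11.2). *Ly86*, *Traf6*, *Irak4* and *Tlr7*, and the sparse *Tlr4* and *Ly96*, had a larger coefficient of variation per marker count than in CPM. *Ly86* had 6.66 and 4.66 counts per 1000 marker counts in WT and 10.2, 1.15 and 8.21 in KIKO replicates 1, 2 and 3. These ratios are a description, and the part of the cell mixture in them was not tested.

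**Figure D3:**
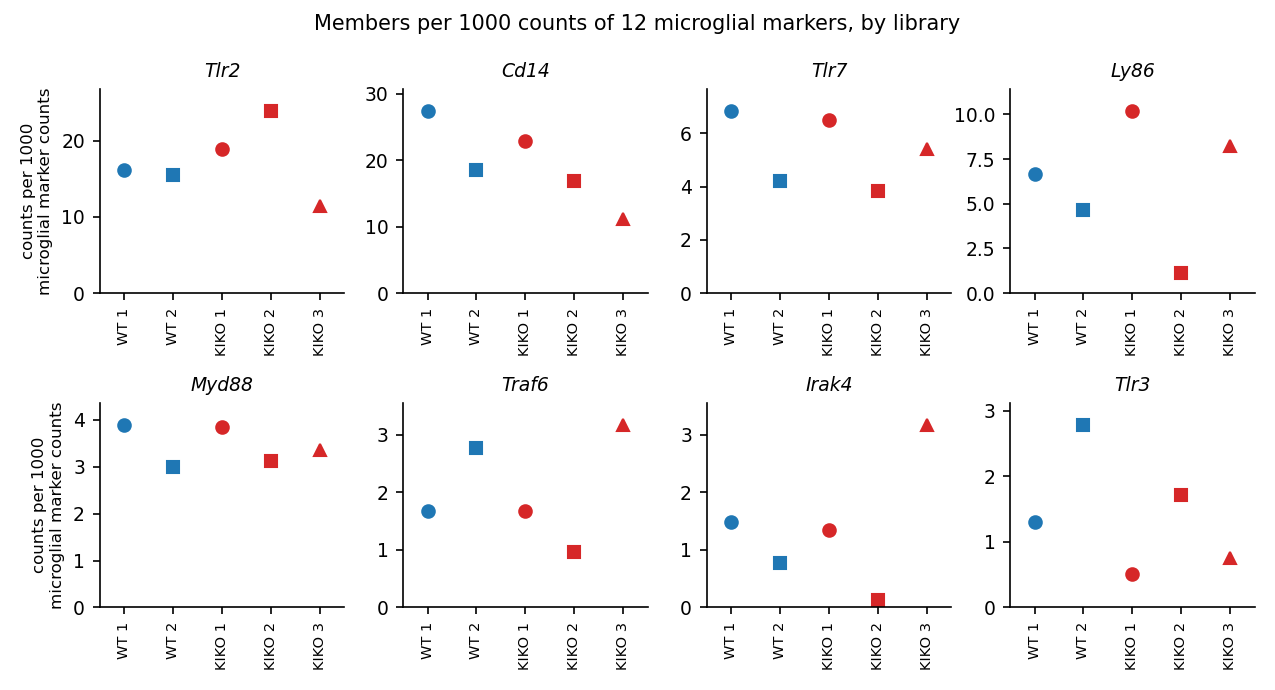
Counts of 8 genes per 1000 counts of the 12 microglial markers in each library (blue, WT; red, KIKO), each panel with its own axis from 0. *Myd88* lies between 3 and 3.89 in all libraries, whereas *Ly86* falls to 1.15 and *Irak4* to 0.128 in KIKO replicate 2.

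The pattern of *Cd14*, the most abundant of the 10 genes, was compared with that of all tested genes by the root mean square difference of log2(CPM + 1), centred on the mean of each gene over the 5 libraries. The nearest genes were *Pigyl* (0.086), *Ulk1* (0.093), *Dusp2* (0.10), *Vim* (0.105) and *Fam102b* (0.116). Among 10889 genes and over only 5 libraries, close matches can arise from the number of genes alone, and shared regulation was not tested. *Pigyl* was low, at 5.074 to 16.23 normalized CPM, where counting error is large. *Ulk1*, a kinase that starts autophagy, had 110.6 and 102.4 normalized CPM in WT and 81.23, 177 and 43.63 in KIKO replicates 1, 2 and 3, with the same order of libraries as *Cd14*. *Vim*, which encodes the intermediate filament vimentin, had 251 and 233.6 in WT and 174.3, 318.4 and 114.7 in KIKO. Of the other 6 tested members, *Myd88* was nearest to *Cd14* with a difference of 0.37, at rank 690 of all tested genes, and *Ly86* was farthest with 1.119, at rank 8722.

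The rest of the pathway was read from 9 lists of 106 further genes, of which 105 were in the count table and 82 could be tested. None of the 82 passed the thresholds with all 5 libraries in edgeR's test, where 1.2% of all genes did and the smallest unadjusted p among the 82 was 0.064. By limma 1 passed and by DESeq2 0. Their log2 fold change was above 0 in 42 and below 0 in 40 genes, with a median of 0.04. The WT and KIKO values did not overlap in 17 of them (20.7%, beside 16.7% of all genes). *Tlr8* and *Tlr9* had 0 counts in every library, and of the 9 genes of the list of other receptors only *Cd180* and *Tlr13* could be tested, with log2 fold changes of 0.52 and −0.57. Among the accessory genes, the lysosomal proteases *Ctss* and *Ctsb*, which process endosomal receptors, led with means of 2290 and 766 normalized CPM and log2 fold changes of 0.16 and 0.18. Of the adaptor genes, *Ticam1* was at 0.64 (standard error 0.66) and *Sarm1* at 0.24 (standard error 0.78) on the log2 scale. Of the 16 tested kinase genes and their partners, *Ikbkb* and *Tab2* were the most abundant, with log2 fold changes of −0.29 and 0.25. Of the 6 tested ubiquitin genes, *Peli1* and *Traf3* led, with −0.15 and 0.63. *Traf3* had 111.3 normalized CPM in KIKO replicate 2, beside 27.89 to 45.51 in the other libraries. Its place rested on that library, as its mean of 36.7 in WT was below the 56.9 of *Peli2*.

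Of the 9 tested inhibitors, 5 had a log2 fold change above 0 and 4 below, with a median of 0.05. The most abundant, *Nfkbia*, which encodes the NF-kB inhibitor IkBa, had a mean of 1040 normalized CPM and a log2 fold change of −0.17, and the deubiquitinase gene *Cyld* had −0.33. *Tollip*, which encodes a negative regulator of IRAK signalling, had 34.86 and 69.02 normalized CPM in WT and 32.33, 25.5 and 16.24 in KIKO replicates 1, 2 and 3. Its groups did not overlap, but its log2 fold change of −1.07 (standard error 0.51, unadjusted p = 0.0678, adjusted p = 1, edgeR) did not pass the thresholds. The groups did not overlap in 4 of the 9 inhibitors, beside 16.7% of all genes tested, and none of the 9 passed the thresholds. *Tollip*, *Cyld* and *Ptpn6* (−1.1) were lower in KIKO and *Nfkbib* (0.91) was higher. Among the 12 transcription factor genes, *Jun* and *Atf3* led with means of 761 and 565 normalized CPM and log2 fold changes of −0.43 and −0.30. The median of this list was −0.25, with 9 of 12 genes below 0. Among the 13 tested genes induced through the pathway, the chemokine genes *Cxcl2* and *Ccl3* led, with log2 fold changes of 0.51 and 0.64. The median of the list was 0.34, with 9 of 13 genes above 0. Its values ran from −1.70 for *Il6* (standard error 0.99), which had at most 11 counts in a library, to 0.89 for *Nlrp3* (standard error 1.04). *Nos2* and *Ifnb1* had 0 counts in every library. Of 9 tested sensors outside the family, *Tmem173* (STING) and *Mavs* were the most abundant, with log2 fold changes of −0.80 (standard error 0.52) and 1.10 (standard error 0.97). *Mavs* had 16.93 and 11.38 normalized CPM in WT and 5.52, 69.55 and 15.22 in KIKO replicates 1, 2 and 3, so that its mean in KIKO rested on replicate 2. So did its place among the most abundant sensors, as its mean of 14.2 in WT was below the 19.8 of *Pycard*.

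Without KIKO replicate 2, the median of the induced genes was −0.46 in place of 0.34. Of 81 tested pathway genes, 7 were then lower and 1 was higher in KIKO than in WT mice past the thresholds (9.88%), in a fit in which 6.45% of all genes passed, 3.51% lower and 2.94% higher. The lower genes were *Lgmn*, *Tollip*, *Tnfaip3*, *Cxcl2*, *Ptgs2*, *Nlrp3* and *Tmem173*, and the higher gene was *Mapk8*. The largest of these changes were those of *Nlrp3*, the inflammasome sensor (−1.35, standard error 0.43), *Ptgs2*, which encodes cyclooxygenase-2 (−1.23, standard error 0.43), and *Tollip* (−1.09, standard error 0.43). None had an adjusted p under 0.05 in edgeR's test, and the smallest was 0.234, for the protease gene *Lgmn*. The log2 fold change was below 0 in 76.5% of the pathway genes and in 50.9% of all genes, and the medians of 8 of the 9 lists were below 0, with −0.52 for the transcription factors and, as the lowest, −0.79 for the 2 other receptors. Markers of several cell types shifted in the same fit. The 12 microglial markers had a median of −0.42, with *Itgam* lower past the thresholds, and those of choroid plexus a median of −0.68, with *Folr1* and *Kl* lower. The myelin genes *Mbp* (−1.11) and *Mog* (−0.86) were lower as well, whereas the Purkinje markers had a median of 0.83, with *Calb1* and *Car8* higher. Higher past the thresholds were also *S100a9* of neutrophils and monocytes (2.25), *Gfap* of astrocytes (1.17) and the neuronal *Syt1* (0.78). Each was the only marker of its list past them. The medians were 1.66 for the 2 tested markers of monocytes and neutrophils, 0.39 for the 5 of astrocytes and 0.18 for the 6 of neurons. The part of these cells in the pathway genes was not tested. In KIKO replicate 2 itself, *Nlrp3* had 232.6 normalized CPM, beside 17.25 to 59.92 in the other 4 libraries, and *Cxcl2* had 1489, beside 195.8 to 592.4.

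**Figure D4:**
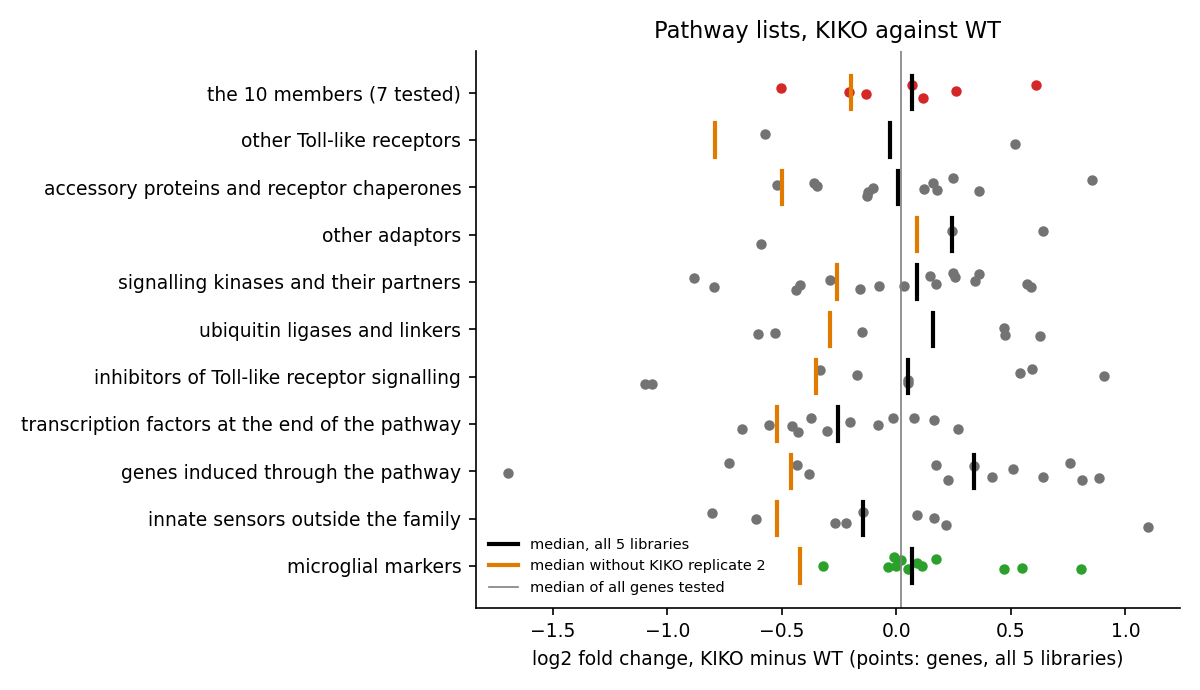
Log2 fold change between KIKO and WT of the tested genes of each list (points, all 5 libraries), for the 7 tested members (red), the 9 other pathway lists (grey) and the microglial markers (green). Black lines are the medians with all 5 libraries, orange lines those without KIKO replicate 2, and the thin vertical line is the median of all genes tested (0.02). The orange lines lie below 0 in all lists shown but the other adaptors (0.09).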

How the data were processed

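Reads were trimmed by the authors (Trimmomatic) and mapped to mm10 (HISAT2), and gene counts from featureCounts were deposited without normalization. A second table, of log2 values normalized by the authors, was not used. In the count table, 2 columns carry a butyrate name found in no label, and they were left out. Symbols, positions and exon lengths came from GENCODE M21 (GRCm38, the build called mm10), which named 30934 of 31053 identifiers. Promoters came from a table of RefSeq starts (GRCm38.p6), and the windows of 6 of the 10 genes were searched. No window was found for *Tlr4*, *Tlr7* and *Ly96*, and that of *Cd14* was left out of the search.

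Genes were kept by filterByExpr (minimum count of 10, minimum total of 15), which left 10889 genes. Libraries were scaled by TMM and KIKO was compared with WT by the two-sided quasi-likelihood test of edgeR 4.0.16 in R 4.3.3, with Benjamini-Hochberg adjustment over all tested genes. The tests were tested on simulated data. An exact permutation test of 2 against 3 libraries cannot give a p below 0.1. Alternatives were DESeq2 1.42.0, limma 3.58.1 with trend, other scalings and filters, the replicate number as a block, and each library left out.

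The members and lists were chosen with earlier results of these data known. All members were named, and from each pathway list the 2 most abundant tested genes and any gene past the thresholds, and from each marker list the most abundant gene and those at 0. The values of some of the genes so chosen, and the sum of the oligodendrocyte markers, are not reported here.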

Additional observations from a re-analysis of the deposited data

How the results depend on the processing

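Of the 10 genes, 7 were tested in the reported fit, 5 to 10 under the alternatives, and 0 passed the thresholds in each. The number of all genes past them was 131, and it was 50 with libraries scaled by the microglial markers, 383 with all genes of at least 1 count and 271 with the replicate block. It ranged from 56 to 669 with each library left out, with 56 without WT replicate 1 and 669 without KIKO replicate 2. With a WT library left out, the lone WT library is assumed to vary like the KIKO libraries. Genes with an adjusted p under 0.05 numbered 1 with all genes of at least 1 count and 0 to 5 with each library left out, the 5 without KIKO replicate 2. Of the pathway genes outside the 10, 1 passed the thresholds with limma (*Map2k3*), 1 with all genes of at least 1 count (*Ptpn6*), 1 with the replicate block (*Ptpn6*) and 0 to 8 with each library left out. The 8 were those without KIKO replicate 2. *Tollip* passed without WT replicate 1, and *Map2k3* and *Ccl5* passed without KIKO replicate 1. What causes these shifts was not tested. The 131 genes divided into 78 higher and 53 lower, beside 96 and 40 with DESeq2 and 109 and 162 with the block.

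Several of the log2 fold changes of the 7 tested genes changed sign. *Tlr7* was at −0.08 when scaled by the microglial markers, *Ly86* at −0.10 with limma, and with the replicate block *Cd14* was at 0.13 and *Ly86* at −0.35. With each library left out, *Tlr2* ranged from −0.35 to 0.97, *Tlr3* from −1.06 to 0.36, *Tlr7* from −0.12 to 0.29, *Cd14* from −0.69 to 0.19, *Ly86* from −0.22 to 0.45, *Myd88* from −0.19 to 0.45 and *Traf6* from −0.64 to 0.42. The 10 genes relative to the microglial markers differed between KIKO and WT by −0.34 percentage points, by −1.02 with 6 markers, and by −1 to 0.25 with each library left out.

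The replicate numbers are shared between the groups, but nothing in the labels ties the mice of a number together. The deviations of same-numbered libraries correlated with r = 0.18 and 0.239 across genes, and those of WT replicate 1 and KIKO replicate 3 with 0.218.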
